A study of Mus musculus with 6 samples.

Results

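Oxidative phosphorylation is carried out by 5 protein complexes of the inner mitochondrial membrane, and the genes that encode them were described here in monocytic myeloid-derived suppressor cells (M-MDSCs) with and without a deletion of mTOR. Members were taken by gene name: every gene whose symbol begins with Nduf, Uqcr, Cox4 to Cox8 or Atp5, the genes Sdha to Sdhd, and the mitochondria-encoded mt-Nd, mt-Co, mt-Atp and mt-Cytb genes, without names marked -ps, and with at least 60 counts summed over the libraries. The names matched 109 genes, of which 4 were -ps names and 5 had too few counts, leaving 100 of the 34745 genes listed. Of these members, 87 are encoded in the nucleus and 13 in the mitochondrial genome, and all 100 entered the test of 12537 genes. Of the 5 left out for low counts, Cox7a1 had 13 counts in all, and Cox7b2, Cox8b, Cox8c and Ndufa4l2 were listed at 0. The members with the fewest counts were Cox4i2 with 79 and mt-Nd6 with 84. Of the 100 members, 10 carry a matching name but are not subunits, namely 7 Ndufaf assembly factors, Cox7a2l, Atp5s and Atp5sl.

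RNA was sequenced from M-MDSCs of WT mice and of Lyz-mTOR mice, with 3 libraries in each group. Lyz-mTOR mice carry floxed Mtor alleles cut by Lyz-Cre and are called mTOR-/- here. Both groups were of strain C57BL/6, and the cells were induced from bone marrow in culture with GM-CSF and IL-6 and then sorted. Lyz-Cre acts in monocytes, macrophages and granulocytes, the WT mice were purchased rather than stated to be littermates, and ages are not given in the sources used here. Total counts ranged from 12317507 to 14768126 per library. Genes with a count numbered 13889 in mTOR-/- replicate 3 and 14709 to 15120 in the other libraries. The targeted gene did not separate the labels: Mtor had 72.0, 75.9 and 69.5 CPM (TMM-scaled counts per 1000000) in the mTOR-/- libraries against 69.7, 59.8 and 66.2 in WT, with an adjusted p of 0.442 in edgeR. Counts over the whole gene need not show the loss of single exons. The paper states that the loss of mTOR in MDSCs was verified separately. Lyz2, the gene that gives the Lyz-Cre its name, had 1196, 903 and 973 CPM in mTOR-/- and 2327, 3910 and 3607 CPM in WT (log2 fold change -1.68, SE 0.20, adjusted p = 0.00255 in edgeR). Lyz2 thus separated the groups, while the loss of Mtor itself could not be read from these counts. The paper lists genotyping primers for a WT and a mutant Lyz allele, and whether the Cre allele itself lowers Lyz2 was not tested.

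The electron transport chain passes electrons from NADH through complex I, or from succinate through complex II, to coenzyme Q, on to complex III, cytochrome c and complex IV, where oxygen is reduced. Complexes I, III and IV pump protons, and complex V, the ATP synthase, uses the gradient to make ATP. A small set of core subunits is encoded in mitochondrial DNA and is transcribed inside the organelle, whereas all other subunits, and all of complex II, come from nuclear genes. mTOR is a growth-sensing kinase that is known to promote the expression of nuclear genes of mitochondrial respiration in several tissues.

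No respiratory chain gene passed the test between mTOR-/- and WT M-MDSCs, that is, an adjusted p of 0.05 in edgeR's quasi-likelihood test with Benjamini-Hochberg adjustment over all genes, where 4.04% of all genes tested did. No member was a differentially expressed gene (adjusted p under 0.05 and a fold of at least 2), where 1.69% of all genes were. At an unadjusted p under 0.05 there were 15 members, 12 of them lower and 3 higher in mTOR-/-, so 15 of 100 against 21.2% of all genes. DESeq2 called 4 members, Ndufa12, Uqcrh, Uqcrfs1 and Cox7c, against 8.13% of all genes that it tested. The 95% confidence interval of the change lay within a fold of 2 in either direction for 78 of the 87 nuclear members and for 1 of the 13 mitochondria-encoded members.

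Nuclear-encoded members leaned lower in mTOR-/- M-MDSCs and mitochondria-encoded members leaned higher. A log2 fold change below 0 was found for 69 of the 87 nuclear members (79.3%) and for 49.4% of all genes tested. Its median over the nuclear members was -0.20 (a level 12.7% lower), beside 0.0049 over all genes. Its median over the 13 mitochondria-encoded members was 0.47 (38.0% higher), with 12 of 13 above 0. The 2 medians are descriptions of lists, and the genes within each list are not independent of each other.

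Most nuclear members lay below 0 in each of the 5 complexes, although complex II has only 4 members. Below 0 were 36 of 44 nuclear members in complex I (median -0.23), 3 of 4 in complex II (median -0.15), 7 of 8 in complex III (median -0.26), 11 of 14 in complex IV (median -0.18) and 12 of 17 in complex V (median -0.18). Leaving out the 10 members that are not subunits gave 63 of 77 nuclear members below 0, with the same median of -0.20.

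**Figure D1:**
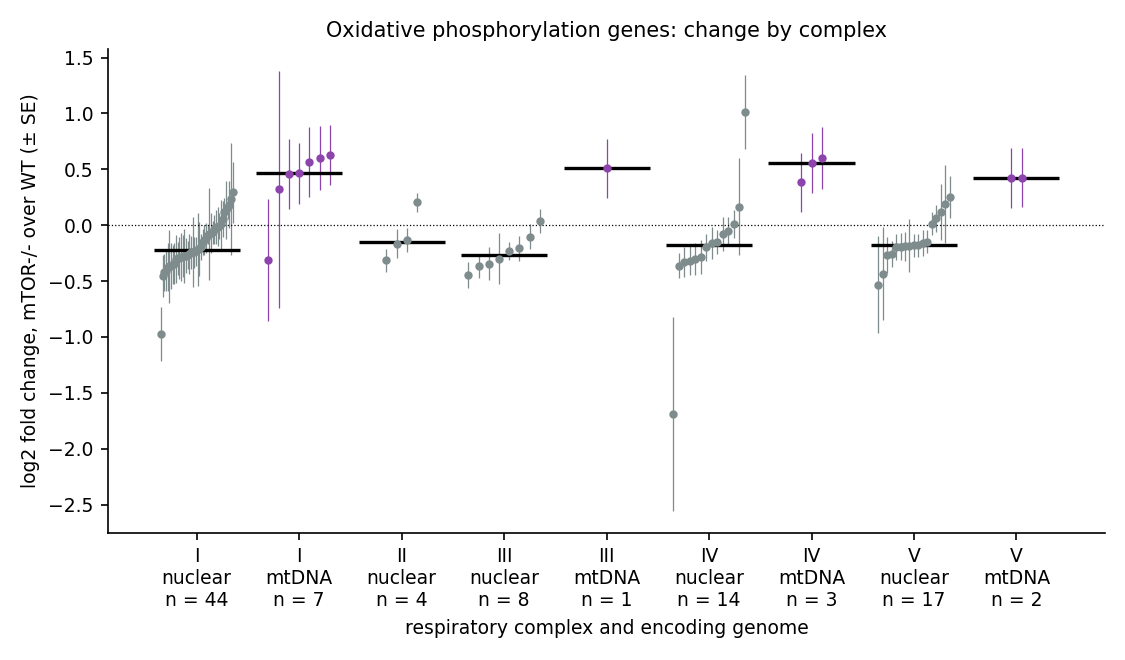
Log2 fold change (mTOR-/- over WT, y axis) of each of the 100 members, with its standard error as a bar, by complex and encoding genome (x axis); black lines are medians. Most nuclear-encoded points of each complex lie below 0 and 12 of 13 mitochondria-encoded points (mtDNA) lie above it.

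Summed over members, the 87 nuclear genes made up 0.521%, 0.553% and 0.493% of each mTOR-/- library's counts, against 0.581%, 0.562% and 0.585% of the WT libraries, so the groups did not overlap. The means were 0.522% ± 0.0302 (SD, n = 3) and 0.576% ± 0.0122 (SD, n = 3). With 3 against 3 libraries an exact permutation test cannot give a two-sided p below 0.1. The 13 mitochondria-encoded genes took 1.45%, 2.26% and 1.28% in mTOR-/- and 0.832%, 1.63% and 1.17% in WT, and these ranges overlapped. The mitochondria-encoded share differed 2.71-fold between its highest and lowest library, whereas the nuclear share differed 1.19-fold. These are bulk libraries, in which fewer cells of a type and less RNA per cell cannot be told apart.

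**Figure D2:**
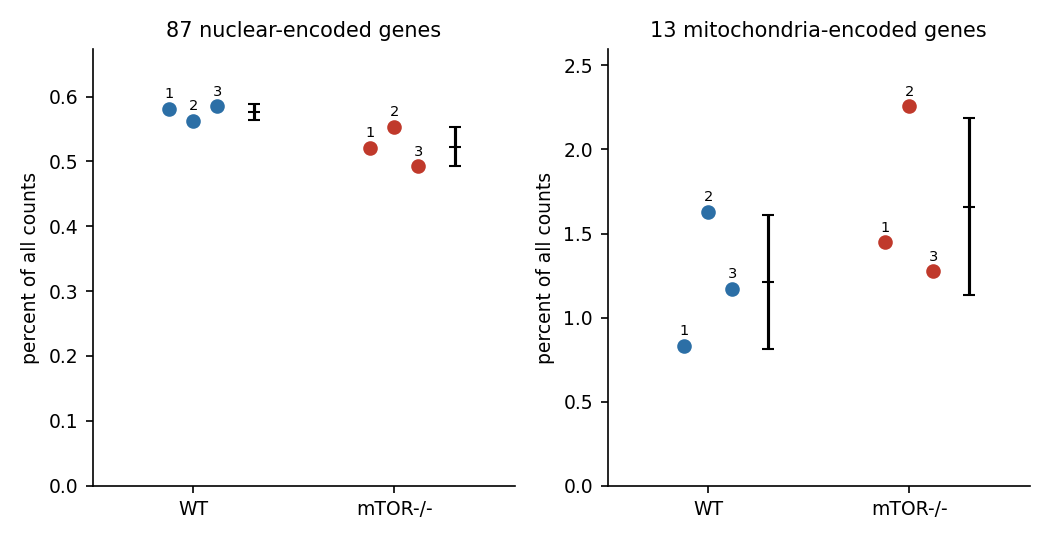
Percent of all counts (y axis) taken by the nuclear-encoded members (left) and the mitochondria-encoded members (right) in each library, numbered by replicate, with the group mean and SD in black. The nuclear shares of the 2 groups do not overlap, and the mitochondria-encoded shares do.

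By complex, the nuclear members of complex III took 0.0610%, 0.0644% and 0.0594% of counts in mTOR-/- and 0.0729%, 0.0684% and 0.0734% in WT. Those of complex IV took 0.101%, 0.107% and 0.0902% against 0.117%, 0.108% and 0.117%. Neither complex overlapped between the groups, and the ratio of mTOR-/- to WT means was 0.861 for complex III and 0.870 for complex IV. The complex IV sum includes Cox7a2l, which is not a subunit and had the highest CPM of its nuclear members. Without Cox7a2l, the summed shares of the other nuclear members of complex IV overlapped between the groups. The separation of complex IV was therefore not seen for its subunits alone. Complex I (ratio 0.924) and complex V (ratio 0.909) also did not overlap. Complex II, whose 4 subunits also form succinate dehydrogenase of the citric acid cycle, took 0.0485% in mTOR-/- and 0.0487% in WT (ratio 0.995), with overlapping libraries.

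Gene by gene, 20 members were lower in every mTOR-/- library than in every WT library, where 13.9% of all genes were, and 2 members (Ndufs1 and Sdha) were higher in every mTOR-/- library, where 14.5% of all genes were. All 22 were nuclear-encoded, and all 13 mitochondria-encoded members overlapped. The lower members were 9 of complex I, 1 of complex II, 3 of complex III, 3 of complex IV and 4 of complex V. The genes among them that the naming rule does not cover were named after their values were seen.

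Promoters of the nuclear members are known for binding sites of NRF1, GABP (an ETS factor) and YY1, which set the level of many respiratory genes. RefSeq promoter windows (300 bases, build GRCm38.p6) were found for 73 of the 87 nuclear members and searched on both strands. The NRF1-type core GCGCANGC was found in 26 of 73 members (35.6%) and in 11.2% of all 27025 genes with a window. The YY1-type core AAGATGGC was found in 11 of 73 (15.1%) and in 3.19% of all genes, and the ETS-type core CCGGAAGT in 5 of 73 (6.85%) and in 4.31% of all genes. In 2 members the NRF1-type and YY1-type cores occurred together, in 2 the NRF1-type and ETS-type cores, and 35 members held none of these letters. The NRF1-type core can overlap its own reverse complement and was counted once per gene. A match describes the letters and is not a measured binding site. The windows below are those of the 2 members with the lowest p, Ndufa12 (chr10:94198785-94199084, + strand) and Uqcrh (chr4:116075021-116075320, - strand), and of the members with the lowest p that hold the other motifs, Sdhd (chr9:50603800-50604099, - strand) with the NRF1-type core and Ndufs7 (chr10:80249199-80249498, + strand) with the YY1-type core. They read 5′ to 3′ on the strand of the gene, and capitals mark a motif on either strand.
Ndufa12: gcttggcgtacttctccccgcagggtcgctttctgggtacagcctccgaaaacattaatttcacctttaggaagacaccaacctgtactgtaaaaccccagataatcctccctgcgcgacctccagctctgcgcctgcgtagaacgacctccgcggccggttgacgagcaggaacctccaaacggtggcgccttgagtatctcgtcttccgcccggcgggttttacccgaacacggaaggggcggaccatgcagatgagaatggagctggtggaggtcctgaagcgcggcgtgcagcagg
Uqcrh: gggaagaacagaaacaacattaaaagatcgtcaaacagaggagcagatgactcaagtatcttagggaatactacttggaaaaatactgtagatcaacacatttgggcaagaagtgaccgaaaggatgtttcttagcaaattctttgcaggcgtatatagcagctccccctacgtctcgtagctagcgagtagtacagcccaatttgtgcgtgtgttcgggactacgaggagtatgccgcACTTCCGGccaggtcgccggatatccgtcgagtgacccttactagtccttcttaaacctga
Sdhd: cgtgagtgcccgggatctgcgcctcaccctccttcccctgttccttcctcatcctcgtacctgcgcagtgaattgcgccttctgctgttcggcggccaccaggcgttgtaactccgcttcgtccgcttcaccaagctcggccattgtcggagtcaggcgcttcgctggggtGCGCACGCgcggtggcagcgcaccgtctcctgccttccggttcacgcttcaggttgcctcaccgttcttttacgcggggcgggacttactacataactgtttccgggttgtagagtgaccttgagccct
Ndufs7: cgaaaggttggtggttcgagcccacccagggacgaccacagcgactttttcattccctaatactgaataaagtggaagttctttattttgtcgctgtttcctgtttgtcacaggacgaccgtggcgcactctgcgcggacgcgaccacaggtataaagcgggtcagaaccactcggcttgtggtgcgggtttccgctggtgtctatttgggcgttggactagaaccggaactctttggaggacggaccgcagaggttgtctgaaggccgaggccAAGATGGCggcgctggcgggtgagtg
Ndufa12 holds none of the 3 motifs in its window, and Uqcrh holds the reverse complement of the ETS-type core.

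Complex I, NADH dehydrogenase, had the member with the lowest p. Ndufa12, an accessory subunit added at a late step of assembly (chr10:94198955-94221443), had 5.87, 9.03 and 5.51 CPM in mTOR-/- and 14.002, 12.1 and 14.031 CPM in WT. All mTOR-/- libraries lay below all WT libraries. This gave a log2 fold change of -0.97 (SE 0.24, 95% CI -1.51 to -0.44), with an adjusted p of 0.0568 in edgeR and of 0.0149 in DESeq2. Its transcripts share 17.7% of their 50-base stretches with a copy, Gm15920.

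Ndufa13, also known as GRIM-19, had 33.8, 22.8 and 25.5 CPM in mTOR-/- and 37.9, 34.8 and 37.1 CPM in WT (log2 fold change -0.42, SE 0.17, adjusted p = 0.188 in edgeR). Ndufa4, named for complex I but since assigned to complex IV, had 21.6, 22.1 and 18.1 CPM against 35.7, 24.1 and 24.6 CPM (log2 fold change -0.45, SE 0.19, adjusted p = 0.212 in edgeR). Neither gene overlapped between the groups, and the WT libraries of Ndufa4 were spread by 1 high value. Ndufa1 had a log2 fold change of -0.41 with overlapping libraries. Complex I members below WT in every library also included Ndufs7, which carries an iron-sulfur cluster, Ndufs4, Ndufa10, Ndufb6 and Ndufb7, with log2 fold changes from -0.35 (Ndufs7) to -0.13 (Ndufs4).

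Ndufs1, the largest subunit and a carrier of iron-sulfur clusters in the NADH-oxidizing arm, went the other way. It had 132.8, 131.1 and 157.7 CPM in mTOR-/- and 129.2, 118.0 and 130.0 CPM in WT. The log2 fold change was 0.16 (SE 0.10, adjusted p = 0.412 in edgeR), and mTOR-/- and WT libraries nearly touched. The largest estimates above 0 among nuclear complex I members belonged to Ndufab1, the mitochondrial acyl carrier protein (0.29, SE 0.27), Ndufb4 (0.23, SE 0.50) and the assembly factor Ndufaf3 (0.18, SE 0.21), all with overlapping libraries. Ndufb4 had only 14 to 30 counts per library.

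The 7 Ndufaf assembly factors had a median log2 fold change of -0.22, with 5 below 0 and none called. Ndufaf4 varied widely between replicates, with 15.97, 18.8 and 41.7 CPM in mTOR-/- and 35.7, 13.5 and 31.7 CPM in WT. Its libraries were high or low in both groups.

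Complex II was split between its subunits. Sdha, the flavoprotein that oxidizes succinate (chr13:74322254-74350280), had 254.5, 243.9 and 229.1 CPM in mTOR-/- and 205.1, 216.3 and 210.3 CPM in WT. Sdhd, a membrane anchor that helps form the coenzyme Q site (chr9:50596338-50603849), had 123.6, 99.9 and 106.6 CPM in mTOR-/- and 134.0, 131.6 and 145.3 CPM in WT. Sdha was thus higher and Sdhd lower in every mTOR-/- library. The log2 fold changes were 0.20 (SE 0.08, adjusted p = 0.211 in edgeR) and -0.32 (SE 0.11, adjusted p = 0.135 in edgeR). The iron-sulfur subunit Sdhb (-0.13, SE 0.11) and the other anchor Sdhc (-0.17, SE 0.13) overlapped between groups.

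Complex III, the cytochrome bc1 complex, had the lowest median among the nuclear lists. Uqcrh, the hinge protein that contacts cytochrome c1 (chr4:116066965-116075071), had 84.0, 77.9 and 81.2 CPM in mTOR-/- and 105.2, 99.0 and 127.1 CPM in WT. Its log2 fold change was -0.45 (SE 0.12, 95% CI -0.71 to -0.19), with an adjusted p of 0.0653 in edgeR and of 0.0175 in DESeq2. Uqcrfs1, the Rieske iron-sulfur protein (chr13:30540308-30545362), had 112.6, 106.9 and 89.9 CPM against 130.0, 132.3 and 136.0 CPM. Its log2 fold change was -0.36 (SE 0.11), with an adjusted p of 0.0926 in edgeR and of 0.0491 in DESeq2. Uqcrc2, a core protein, had 140.0, 141.0 and 138.8 CPM against 166.3, 156.0 and 170.3 CPM (log2 fold change -0.23, SE 0.08, adjusted p = 0.161 in edgeR). In these 3 genes every mTOR-/- library was below every WT library, and the mTOR-/- libraries of Uqcrc2 lay close together. Uqcr10 had a log2 fold change of -0.34 and overlapped, and Uqcrc1, the other core protein, was at 0.04 (SE 0.11).

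**Figure D3:**
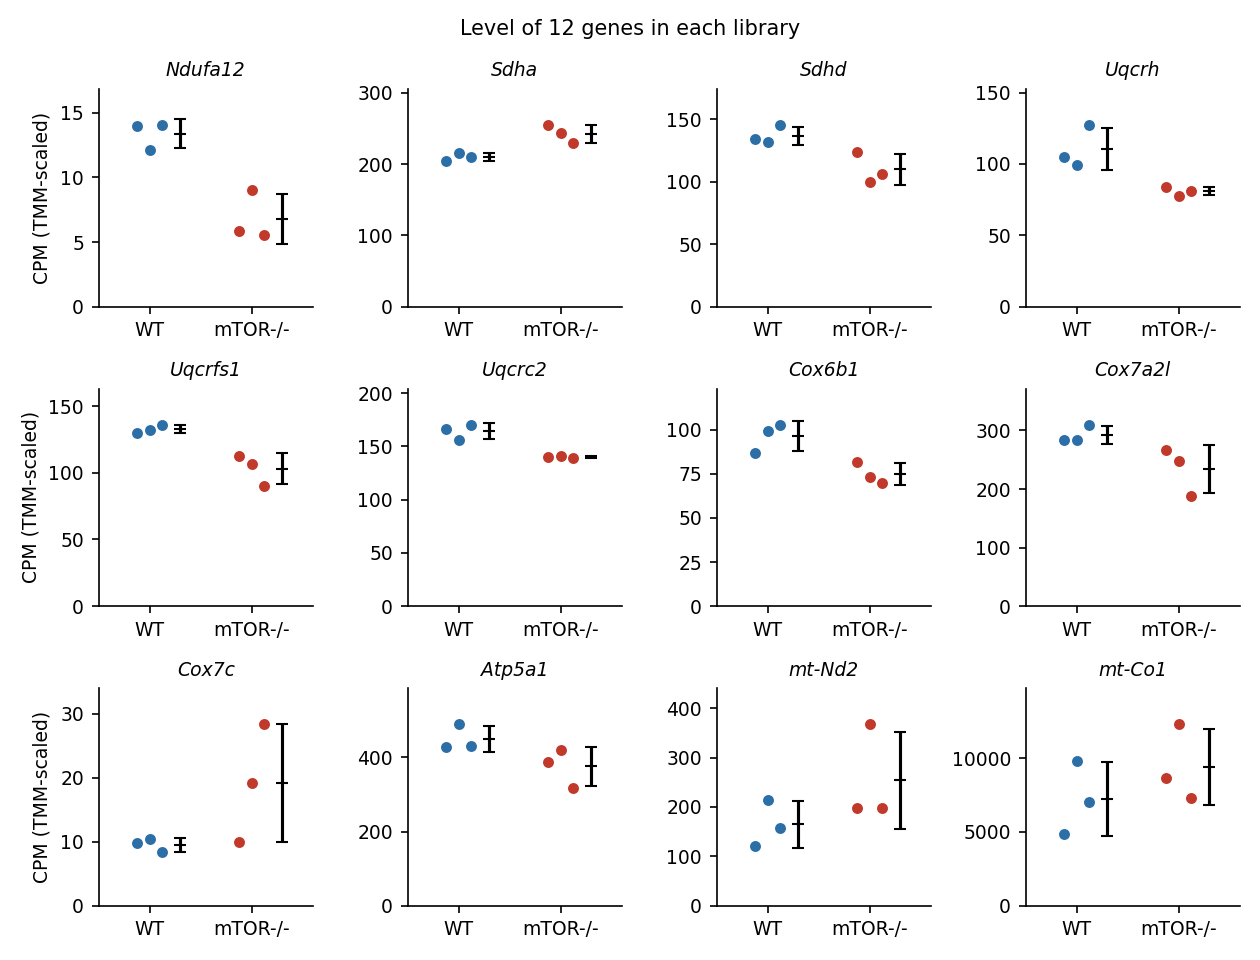
TMM-scaled CPM (y axis, starting at 0) of 12 members in each WT library (blue) and mTOR-/- library (red), with group means and SD in black. Ndufa12, Sdhd, Uqcrh, Uqcrfs1, Uqcrc2, Cox6b1, Cox7a2l and Atp5a1 are lower and Sdha is higher in every mTOR-/- library, whereas Cox7c, mt-Nd2 and mt-Co1 overlap.

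Complex IV, cytochrome c oxidase, held both the lowest and the highest estimate of all members. Cox6b1, which lies between the monomers of the oxidase dimer, had 81.6, 73.5 and 69.8 CPM in mTOR-/- and 86.8, 99.6 and 102.8 CPM in WT. The libraries did not overlap, and the log2 fold change was -0.36 (SE 0.11, adjusted p = 0.106 in edgeR). Cox7a2l, a factor that joins complexes III and IV into supercomplexes, had 266.3, 247.8 and 188.1 CPM against 283.2, 283.4 and 309.7 CPM (log2 fold change -0.32, SE 0.13, adjusted p = 0.199 in edgeR).

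Cox7c (chr13:86044816-86046904) had the highest estimate, with 9.94, 19.2 and 28.4 CPM in mTOR-/- and 9.81, 10.4 and 8.33 CPM in WT. A pair of mTOR-/- libraries was high and replicate 1 lay within the WT range, so the groups overlapped. This gave a log2 fold change of 1.01 (SE 0.33, adjusted p = 0.125 in edgeR and 0.0403 in DESeq2). The value was 1.32 without mTOR-/- replicate 1, with an adjusted p of 0.0333 in edgeR, and 0.61 without mTOR-/- replicate 3. Cox7c shares 22.1% of its 50-base stretches with 3 other genes, of which Gm10012 had 18 to 32 counts per library.

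Several complex IV subunits have isoforms with different tissue ranges, and levels between them were compared as CPM per kb of exon in the GENCODE M21 gene models. Cox4i1, the general form of subunit 4, was at 71.9 ± 10.2 CPM per kb in mTOR-/- and 90.4 ± 12.4 CPM per kb in WT (SD, n = 3). Cox4i2, the form known from lung and from low oxygen, was at 0 to 2.14% of Cox4i1 on that scale. It had 5, 12 and 0 counts in mTOR-/- and 23, 18 and 21 counts in WT, so it was lower in every mTOR-/- library, with a log2 fold change of -1.69 (SE 0.87, adjusted p = 0.300 in edgeR). Without the library at 0 the log2 fold change was -1.11.

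Cox6a2, the form known from heart and skeletal muscle, was at 71.6 to 92.1% of the general form Cox6a1 per kb in all 6 libraries, with a log2 fold change of -0.16 (SE 0.14). On the scale of the deposited FPKM the order was reversed, with means over all libraries of 98.6 for Cox6a2 and 69.1 for Cox6a1. Cox6a2 overlaps the integrin gene Itgad by 70 bp on the opposite strand, and whether counting used strand is not given in the sources used here. Cox6b2, known from testis, was at 1.505 to 5.47% of Cox6b1. Cox8a was at 210.4 CPM per kb over all libraries, the highest nuclear level among the complexes, while Cox8b and Cox8c were listed at 0.

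Cox7a2, the general form of subunit 7a, was at 33.8 to 39.8% of Cox7a2l per kb in 5 libraries and at 63.5% in mTOR-/- replicate 3. That library was the lowest for Cox7a2l and the highest for Cox7a2. The log2 fold change of Cox7a2 was 0.01 (SE 0.13).

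**Figure D4:**
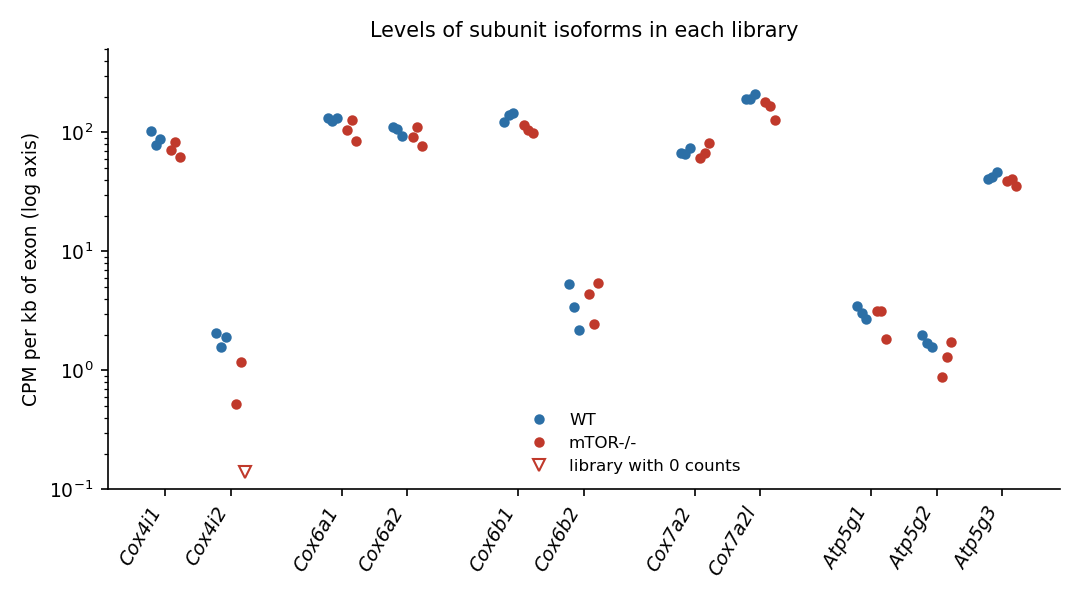
CPM per kb of exon (y axis, log scale) of subunit isoforms of complexes IV and V in each library, WT in blue and mTOR-/- in red. Cox7a2l, drawn beside Cox7a2, is not a subunit. The open triangle marks the mTOR-/- library with 0 counts of Cox4i2, drawn at the bottom of the axis. Cox6a2 lies near Cox6a1, whereas Cox4i2, Cox6b2, Atp5g1 and Atp5g2 lie far below Cox4i1, Cox6b1 and Atp5g3.

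Complex V, the ATP synthase, had no nuclear member with an unadjusted p under 0.05. Atp5a1, the alpha subunit of the catalytic head, had 388.6, 419.6 and 318.2 CPM in mTOR-/- and 427.5, 489.2 and 429.7 CPM in WT (log2 fold change -0.26, SE 0.12, adjusted p = 0.249 in edgeR). Atp5a1, Atp5j, Atp5o and Atp5g3 were lower in every mTOR-/- library. Atp5b, the catalytic beta subunit, had the highest level per kb of the nuclear members of the complex and overlapped (log2 fold change -0.16, SE 0.11).

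The membrane ring of the synthase is built from 1 protein encoded by Atp5g1, Atp5g2 and Atp5g3. Atp5g3 supplied most of the signal, since Atp5g1 was at 5.18 to 8.55% and Atp5g2 at 2.25 to 4.93% of it per kb. The log2 fold changes were -0.18 (SE 0.24), -0.43 (SE 0.42) and -0.18 (SE 0.10) for Atp5g1, Atp5g2 and Atp5g3. Atp5l had the lowest estimate of the complex (-0.53, SE 0.44) from 22 to 82 counts per library, and it ranged from -1.09 without mTOR-/- replicate 3 to -0.21 without mTOR-/- replicate 2. The largest estimates above 0 belonged to Atp5sl (0.25, SE 0.19) and Atp5s (0.19, SE 0.35), neither of which is a subunit.

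Among the mitochondria-encoded transcripts, mt-Co1, the catalytic core of complex IV and the most abundant member by CPM, had 8642, 12290 and 7301 CPM in mTOR-/- and 4836, 9820 and 6996 CPM in WT. Replicate 2 was the highest library of each group, and the WT value of replicate 2 exceeded 2 of the mTOR-/- values. For mt-Co1 the log2 fold change was 0.38 (SE 0.27, adjusted p = 0.445 in edgeR).

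mt-Nd2, a proton-pumping subunit of complex I, had the lowest p of the 13, with 197.4, 367.4 and 197.7 CPM in mTOR-/- and 121.3, 214.6 and 158.3 CPM in WT (log2 fold change 0.63, SE 0.27, adjusted p = 0.220 in edgeR). The other log2 fold changes above 0 ran from 0.32 for mt-Nd4l to 0.60 for mt-Nd4 and mt-Co3, with 0.51 for mt-Cytb of complex III and 0.43 for mt-Atp6 of complex V. mt-Nd6, which alone among these genes is transcribed from the other strand, had 10 to 21 counts per library and a log2 fold change of -0.31 (SE 0.55). The median of the 13 fell between 0.13 without mTOR-/- replicate 2 and 0.71 without WT replicate 2.

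Of the mitochondria-encoded members, 9 share 50-base stretches with other genes of the annotation, and 7 share more than 50% of theirs. The sequenced reads were longer than that, and copies in the nuclear genome can take part of the reads of the original. Gm28661, the copy of mt-Co2, was at 10.01 to 10.9% of mt-Co2 counts in every library. Gm10925, the copy of mt-Atp6, was at 10.9 to 12.4% of it. Both copies varied with their originals. Gm28438, the copy of mt-Nd3, was at 26.2% of mt-Nd3 counts in mTOR-/- replicate 3 and at 5.50 to 13.2% in the other 5 libraries.

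mt-Nd4l stood out in 1 library. It had 1472, 2709 and 1 counts in mTOR-/- and 855, 1676 and 1241 counts in WT. No other gene listed had at most 3 counts in 1 library and at least 200 in each of the other 5. Its neighbour mt-Nd4, which lies on the same transcript, had 5288 counts in that library, and mt-Nd4l was at 23.4 to 26.6% of mt-Nd4 in 5 libraries and at 0.0189% in mTOR-/- replicate 3. The comparable pair of overlapping genes mt-Atp8 and mt-Atp6 kept a ratio of 33.9 to 36.9% in all 6.

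mt-Nd4l (chrMT:9877-10173, + strand) overlaps mt-Nd4 (chrMT:10167-11544) by 7 bp. It is shown because 98.8% of its 50-base stretches are also found in Gm10222, a nuclear copy, and capitals mark the 7 bases shared with mt-Nd4 (GENCODE M21 transcript).
mt-Nd4l: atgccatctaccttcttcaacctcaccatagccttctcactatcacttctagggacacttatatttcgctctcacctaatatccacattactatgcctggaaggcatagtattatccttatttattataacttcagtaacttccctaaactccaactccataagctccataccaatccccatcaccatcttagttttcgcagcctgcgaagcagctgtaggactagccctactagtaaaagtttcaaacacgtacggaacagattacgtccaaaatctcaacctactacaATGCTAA
Gm10222 had 164, 326 and 184 counts in mTOR-/- and 112, 151 and 131 counts in WT. It was at 3.48% of mt-Nd4 in mTOR-/- replicate 3 and at 2.13 to 3.06% in the other 5 libraries. The near-identical copy was thus not low in the library in which mt-Nd4l had 1 count. The log2 fold change of mt-Nd4l was 0.32 (SE 1.06) with this library and 0.90 without it, and a cause for the single count was not tested.

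**Figure D5:**
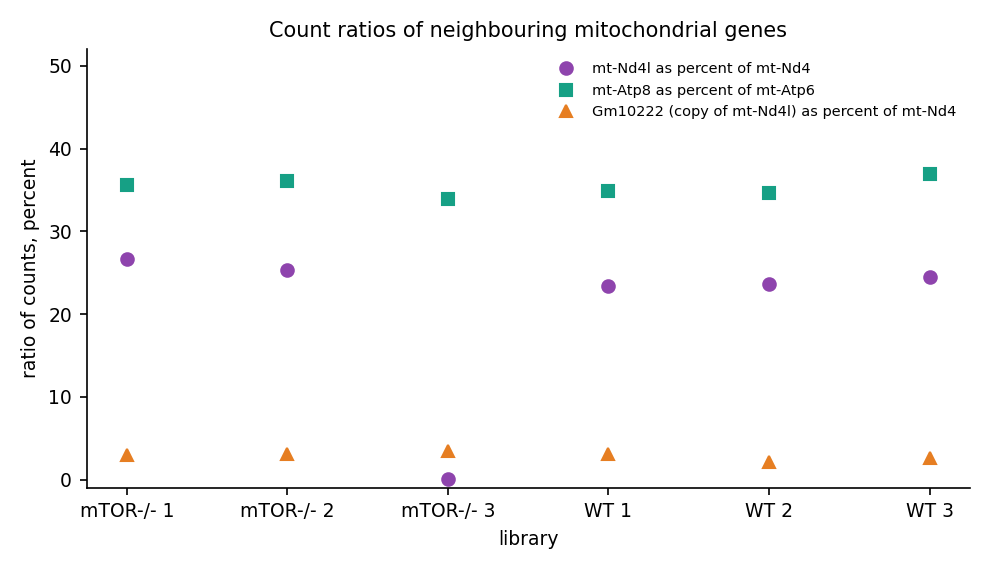
Count ratios in percent (y axis) in each library (x axis) for mt-Nd4l over mt-Nd4, mt-Atp8 over mt-Atp6, and Gm10222, the nuclear copy of mt-Nd4l, over mt-Nd4. Only the ratio of mt-Nd4l to mt-Nd4 in mTOR-/- replicate 3 departs from the other libraries, at 0.0189%.

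Other genes of mitochondrial respiration were taken from 10 lists of 106 genes, of which 101 were tested and none passed an adjusted p of 0.05 in edgeR. The list medians ran from -0.09 for complex IV assembly to 0.20 for coenzyme Q synthesis. In coenzyme Q synthesis the largest estimates were Adck3 (0.93, SE 0.45), a regulator of the pathway, and Coq6 (-0.55, SE 0.26), a hydroxylase. Adck3 had 3.26, 3.24 and 6.20 CPM in mTOR-/- and 3.20, 1.91 and 1.57 CPM in WT. Its mTOR-/- libraries were thus all higher, but the groups nearly touched at these low levels. Coq6 overlapped.

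The assembly lists held lower and higher members. Uqcc2, a factor for making cytochrome b of complex III, had 133, 185 and 163 counts in mTOR-/- and 276, 253 and 255 counts in WT (log2 fold change -0.55, SE 0.17, adjusted p = 0.110 in edgeR), whereas Lyrm7, which helps insert the Rieske protein, had a log2 fold change of 0.57 (SE 0.49). For complex IV the copper chaperones Sco2 (-0.62, SE 0.45) and Cox11 (-0.52, SE 0.23) had the largest estimates. For complex I these were Nubpl (-0.47, SE 0.34) and Tmem186 (0.38, SE 0.19), for complex II Sdhaf4 (-0.31, SE 0.28) and Sdhaf3 (-0.09, SE 0.40), and for complex V Atpaf2 (0.31, SE 0.13) and the inhibitor Atpif1 (-0.12, SE 0.10).

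Among 22 genes that copy, transcribe or mature mitochondrial RNA and DNA, Mterf2 (-0.94, SE 0.49) and Mterf1a (0.52, SE 0.31) had the largest estimates. The list summed to 622.9 to 676.5 CPM in mTOR-/- and 589.4 to 605.3 CPM in WT, without overlap. This was not particular to that list. Coenzyme Q synthesis summed to 209.4 to 218.8 CPM in mTOR-/- and 179.8 to 198.5 CPM in WT. Complex I assembly summed to 148.25 to 176.4 CPM in mTOR-/- and 135.4 to 145.2 CPM in WT. The sums of the remaining pathway lists overlapped. Regulators of nuclear respiratory genes had a median of 0.0003, with Pprc1 at 0.27 (SE 0.15) and Myc at 0.22 (SE 0.13). Dhodh (0.19, SE 0.23) and Gpd2 (0.14, SE 0.11), which feed electrons to coenzyme Q, overlapped between groups, and the largest estimates among carriers and channels were those of the outer membrane channel Vdac1 (-0.20, SE 0.09) and the nucleotide carrier Slc25a5 (-0.20, SE 0.12).

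Markers of cell types moved with the groups, and their part in the values above was not tested. Of 5 mast cell and basophil markers 3 fell (Kit, Mcpt8 and Cpa3), and the list summed to 218.1 to 264.1 CPM in mTOR-/- and 833.5 to 995.9 CPM in WT. Of 8 monocyte markers 2 rose (Csf1r and Cd14) and 2 fell (Ly6c2 and Lyz2), and the list summed to 2275 to 2782 CPM against 3781 to 5419 CPM. Without Lyz2 the other 7 summed to 1372 to 1809 CPM in mTOR-/- and 1454 to 1618 CPM in WT, and overlapped. Of 9 neutrophil markers 2 rose (S100a8 and Ly6g) and 2 fell (Ngp and Ltf), with overlapping sums. Of 6 dendritic cell markers H2-Aa and H2-Ab1 rose, and the list summed to 462.9 to 598.6 CPM against 115.9 to 258.5 CPM. Lymphocyte markers summed to 3.26 to 5.58 CPM, and of 5 markers of cycling cells 1 fell (Cdk1). Of 7 macrophage markers 5 were tested and none passed. That list still summed to 535.9 to 657.9 CPM in mTOR-/- and 662.2 to 745.4 CPM in WT, without overlap. Of 5 erythroid markers only 1 was tested, and it did not pass. The erythroid list summed to 0.99 to 1.63 CPM in mTOR-/- and 2.99 to 7.26 CPM in WT, also without overlap.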

How the data were processed

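Sequencing reads were processed by the authors, who deposited a table of whole-number counts per gene and of FPKM (scaled by exon length and library size) for the 6 libraries. The submitters' processing notes name HISAT2 2.0.4, StringTie 1.3.0 and 2 genome builds, whereas the methods of the study name another aligner and counter, so the counting rules, strand setting and treatment of reads with several matches are uncertain. Gene positions are printed as in the table. They overlap those of GENCODE M21 on GRCm38 for 99.9% of genes, but start and end are equal for only 80.8% of genes and 75 of the 100 members, so exon lengths from M21 may differ from those the authors used. Of 36 per-sample columns, 24 stand in 2 further tables under the names of the same libraries, beside the authors' own fold changes and p-values, and were not used. The FPKM entered only the rule for named genes and the comparison of Cox6a2 with Cox6a1. Their length equals the sum of all distinct exons, rather than the union of exons, for 72.5% of genes within 1%.

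The counts were filtered with filterByExpr (at least 10 counts), scaled by TMM and compared (mTOR-/- against WT, 3 against 3) with edgeR 4.0.16 (limma 3.58.1, R 4.3.3) by the quasi-likelihood method, and p-values were adjusted over 12537 genes after Benjamini and Hochberg. The common biological coefficient of variation was 19.0%. CPM are TMM-scaled, and CPM per kb use the union of exons. DESeq2 1.42.0 was an alternative test. The method was tested on simulated data. Identical 50-base stretches shared with other genes were searched in the M21 transcripts. Alternatives were other scalings, filters, a replicate term and leaving out each library.

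The named genes were the 3 highest and 3 lowest of each complex by log2 fold change, the highest and lowest by deposited FPKM, all mitochondria-encoded members, members passing the test, isoform pairs and, of the other lists, genes passing or the 2 with the largest change. Members and lists were chosen with earlier results of these data known. Nothing states which libraries share an animal or culture beyond 3 mice per group, so p-values measure the spread between these libraries. Whether replicate numbers pair the libraries is not stated, and the main test did not pair them. Some members are counted in the totals but are not reported here by name.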

Additional observations from a re-analysis of the deposited data

How the results depend on the processing

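The median log2 fold change of the nuclear members ran from -0.23 to -0.15 and that of the mitochondria-encoded members from 0.13 to 0.71 when single libraries were left out, and across the settings that kept all members 67 to 73 of 87 nuclear members were below 0 and 10 to 12 of 13 mitochondria-encoded members above it (68 of 86 and 11 of 12 with at least 10 counts in every library, and 63 of 77 nuclear members among subunits alone). Members with an adjusted p under 0.05 numbered 2 without a filter on low counts (Ndufa12, adjusted p = 0.0353, and Uqcrh, adjusted p = 0.0484, in edgeR), 4 in DESeq2, and 0 to 1 when single libraries were left out (Cox7c without mTOR-/- replicate 1, and Ndufa12, log2 fold change -1.24 with an adjusted p of 0.0263, without mTOR-/- replicate 2). Members that were also changed at least 2-fold numbered 1 in DESeq2 (Cox7c) and 0 to 1 when single libraries were left out. Over all genes 507 passed, and 1071 did so in DESeq2, 279 with the replicate block and 173 to 513 when single libraries were left out. With the replicate block 0 members passed, 18 had an unadjusted p under 0.05, and mt-Nd4l was at -0.51. Deviations of same-numbered libraries correlated at -0.0764, -0.0252 and -0.0608 over all genes (-0.0812, 0.419 and -0.0382 over the members). Libraries with different numbers were not compared, so these values cannot show whether the libraries were paired. Under scalings chosen after seeing the data, 15 to 20 members were lower and 2 to 3 higher in every mTOR-/- library, against 12.02 to 14.1% and 14.3 to 16.3% of all genes, and 15 to 20 of the lower ones were among the 20 reported. The log2 fold change of Cox7a2 was -0.0042 without a filter and -0.0003 with library sizes that left out mitochondria-encoded genes. Leaving out single libraries changed the sign of 11 of the 62 named genes, none of them called: Atp5g1 (-0.32 to 0.0305), Atp5k (-0.0384 to 0.27), Atp5s (-0.31 to 0.43), Cox6b2 (-0.10 to 0.54), Cox7a2 (-0.12 to 0.0946), mt-Nd3 (-0.0944 to 0.69), mt-Nd4l (-0.56 to 0.90), Ndufab1 (-0.0471 to 0.54), Ndufaf4 (-0.64 to 0.17), Ndufb4 (-0.11 to 0.47) and Uqcrc1 (-0.0591 to 0.12). The estimate moved by over 1.5 times in 45 of the 62. The cause of these shifts was not tested. At this depth and number of libraries, changes of mitochondria-encoded members by a fold of 2 are not excluded for 12 of 13.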
